A study of Homo sapiens and Mus musculus with 21 samples.

Results

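The Notch pathway was followed in human colon carcinoma grown in the mouse caecum through 9 of its genes, the receptors NOTCH1, NOTCH2 and NOTCH3, the ligands JAG1 and JAG2, the Fringe genes LFNG, MFNG and RFNG, and the target gene HES1. The genes were chosen by name and found by joining the Ensembl identifiers of the human expression table to the symbols of GENCODE release 29. All 9 were among the 58336 identifiers, and all 9 passed the filter on low values, which asked for at least 1 TPM in at least 3 of 18 libraries. TPM, the unit of the table, is a transcript level scaled by length and by the total of the library, so levels of different genes can be set side by side.

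The tumours came from SW620, a line from a lymph node metastasis of a colon carcinoma, and SW480, a line from the primary tumour of the same patient. In all, 6 groups of 3 libraries were compared. SW620 dnLEF1 carried a dominant negative form of LEF1, a transcription factor of the Wnt pathway, brought in by lentivirus. SW620 LRP6KO had received CRISPR reagents that target LRP6, a Wnt co-receptor, before sorting of cells with little of that protein, and SW620 Cas9 was its mock-transfected and sorted control. SW620 Mock carried a mock lentivirus. SW480 dnLEF1 and SW480 Mock were made in the same way as their SW620 counterparts. The hosts in all 6 groups were NSG mice, which lack T cells, B cells and natural killer cells, and each received 500000 cells in the caecum wall 28 days before harvest. The tumour cells were transduced or sorted populations, their own LEF1 gene was kept under dnLEF1, and the promoter driving dnLEF1 is not given in the sources used here. The design speaks of biological triplicates, but the labels do not tie each library to its own mouse, so p-values measure the spread between these libraries. In whole tissue, fewer cells of a type and less RNA per cell cannot be told apart.

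Notch receptors sit at the cell surface and are cut when a Jagged or Delta-like ligand on a neighbouring cell binds them. The freed intracellular domain joins RBPJ and Mastermind proteins on DNA and switches on genes such as HES1, a repressor that in the gut holds progenitor cells back from the secretory fate. Fringe enzymes add N-acetylglucosamine to sugars on the receptor in the Golgi, which changes how well it answers to each class of ligand. In the intestinal epithelium Notch and Wnt signalling act together in the crypt.

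The labels were checked first. LEF1 had 18.25, 22.51 and 23.98 TPM in SW620 dnLEF1, against 0.3, 0.8 and 0.59 TPM in SW620 Mock, and 99.36, 50 and 47.2 TPM in SW480 dnLEF1, against 14.75, 13.3 and 5.09 TPM in SW480 Mock. LEF1 was therefore higher without overlap in both dnLEF1 groups, although a level per gene cannot tell introduced from endogenous LEF1 transcript. LRP6 transcript had 21.12, 18.79 and 17.45 TPM in SW620 LRP6KO, against 10.93, 17.83 and 17.51 TPM in SW620 Cas9, so transcript gave no check of a knockout that had been sorted on protein. Of 9 colon epithelium markers, CEACAM5 and KRT20 did not pass the filter in the 18 libraries, and the summed level of the list was 8740 to 21250 TPM. CDX2, an intestinal transcription factor, had a median of 2.085 TPM in SW620, against 24.98 TPM in SW480. The SW480 median pools unlike groups, with 9.55 to 15.76 TPM for dnLEF1 and 34.21 to 46.24 TPM for Mock. In SW620 it was 0.17 to 0.76 TPM for dnLEF1 and 1.3 to 2.33 TPM for Mock. Of 26 markers of endothelium, pericytes and smooth muscle, fibroblasts and leukocytes, 9 did not pass the filter, and none was at 0 in every library. SW480 Mock replicate 2 and SW620 LRP6KO replicate 1 stood apart, with 34709 and 34114 genes above 0, against 24665 to 29691 in the other libraries. Leaving both out changed the call of none of the 9 genes in any of the 7 comparisons.

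Promoter sequence was looked up because dnLEF1 acts on TCF/LEF sites and Notch acts through RBPJ sites. RefSeq promoters on GRCh38.p14, each from 250 bases before to 50 bases after a start, were found for 8 of the 9 genes, 9 promoters in all. MFNG had no entry. The TCF/LEF core CTTTGA, searched on both strands, was in none of the 9, and 12.9% of 35116 promoters hold it. The RBPJ core TGGGAA, also searched on both strands, was in the HES1 promoter (chr3:194135898-194136197, plus strand) and in both LFNG promoters (chr7:2512279-2512578 and chr7:2517613-2517912, plus strand), and 24.0% of promoters hold it. HES1 held it at 2 positions, starting 84 and 70 bases before the start site, and 3.8% of promoters hold 2 or more. These 3 promoters are shown because the members farthest from Mock under dnLEF1 were HES1 in SW480 and LFNG in SW620. Capitals mark TGGGAA, or its reverse complement TTCCCA.
HES1: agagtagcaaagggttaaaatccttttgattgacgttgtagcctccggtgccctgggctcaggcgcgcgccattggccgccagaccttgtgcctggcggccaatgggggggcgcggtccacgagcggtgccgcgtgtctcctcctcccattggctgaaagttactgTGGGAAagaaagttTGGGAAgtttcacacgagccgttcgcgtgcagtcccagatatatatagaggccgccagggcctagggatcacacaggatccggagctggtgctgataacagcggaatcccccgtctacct
LFNG, first promoter: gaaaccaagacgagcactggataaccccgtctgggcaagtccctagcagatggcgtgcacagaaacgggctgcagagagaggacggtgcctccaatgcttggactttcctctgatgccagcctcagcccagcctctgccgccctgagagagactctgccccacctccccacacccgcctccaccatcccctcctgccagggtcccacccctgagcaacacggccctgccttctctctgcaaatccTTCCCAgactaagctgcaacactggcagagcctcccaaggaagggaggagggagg
LFNG, second promoter: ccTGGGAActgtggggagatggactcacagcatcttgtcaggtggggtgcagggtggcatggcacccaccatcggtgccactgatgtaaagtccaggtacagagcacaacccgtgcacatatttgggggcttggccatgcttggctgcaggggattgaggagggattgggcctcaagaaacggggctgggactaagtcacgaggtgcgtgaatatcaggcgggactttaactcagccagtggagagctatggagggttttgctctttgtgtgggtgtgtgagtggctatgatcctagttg
A match is a stretch of letters and was not tested as a binding site, and the letters not being found says only that they are not in this window.

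All 9 genes were above 0 in every library, and 1 of them set the lines apart at a glance. MFNG had a lowest, median and highest level of 127.66, 175.2 and 192.81 TPM over the 12 SW620 libraries, against 0.8, 3.17 and 6.07 TPM over the 6 SW480 libraries. In SW620 the order of medians ran MFNG, JAG1, RFNG, JAG2, HES1, NOTCH2, NOTCH1, LFNG and NOTCH3, and the range of MFNG was clear of that of the next gene while every other pair of neighbours overlapped. In SW480 the order ran HES1, NOTCH2, RFNG, JAG2, NOTCH1, MFNG, JAG1, LFNG and NOTCH3, and all neighbours overlapped except JAG1 and LFNG. NOTCH3 stood last in both lines, with medians of 0.8 TPM in SW620 and 1.285 TPM in SW480.

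**Figure D1:**
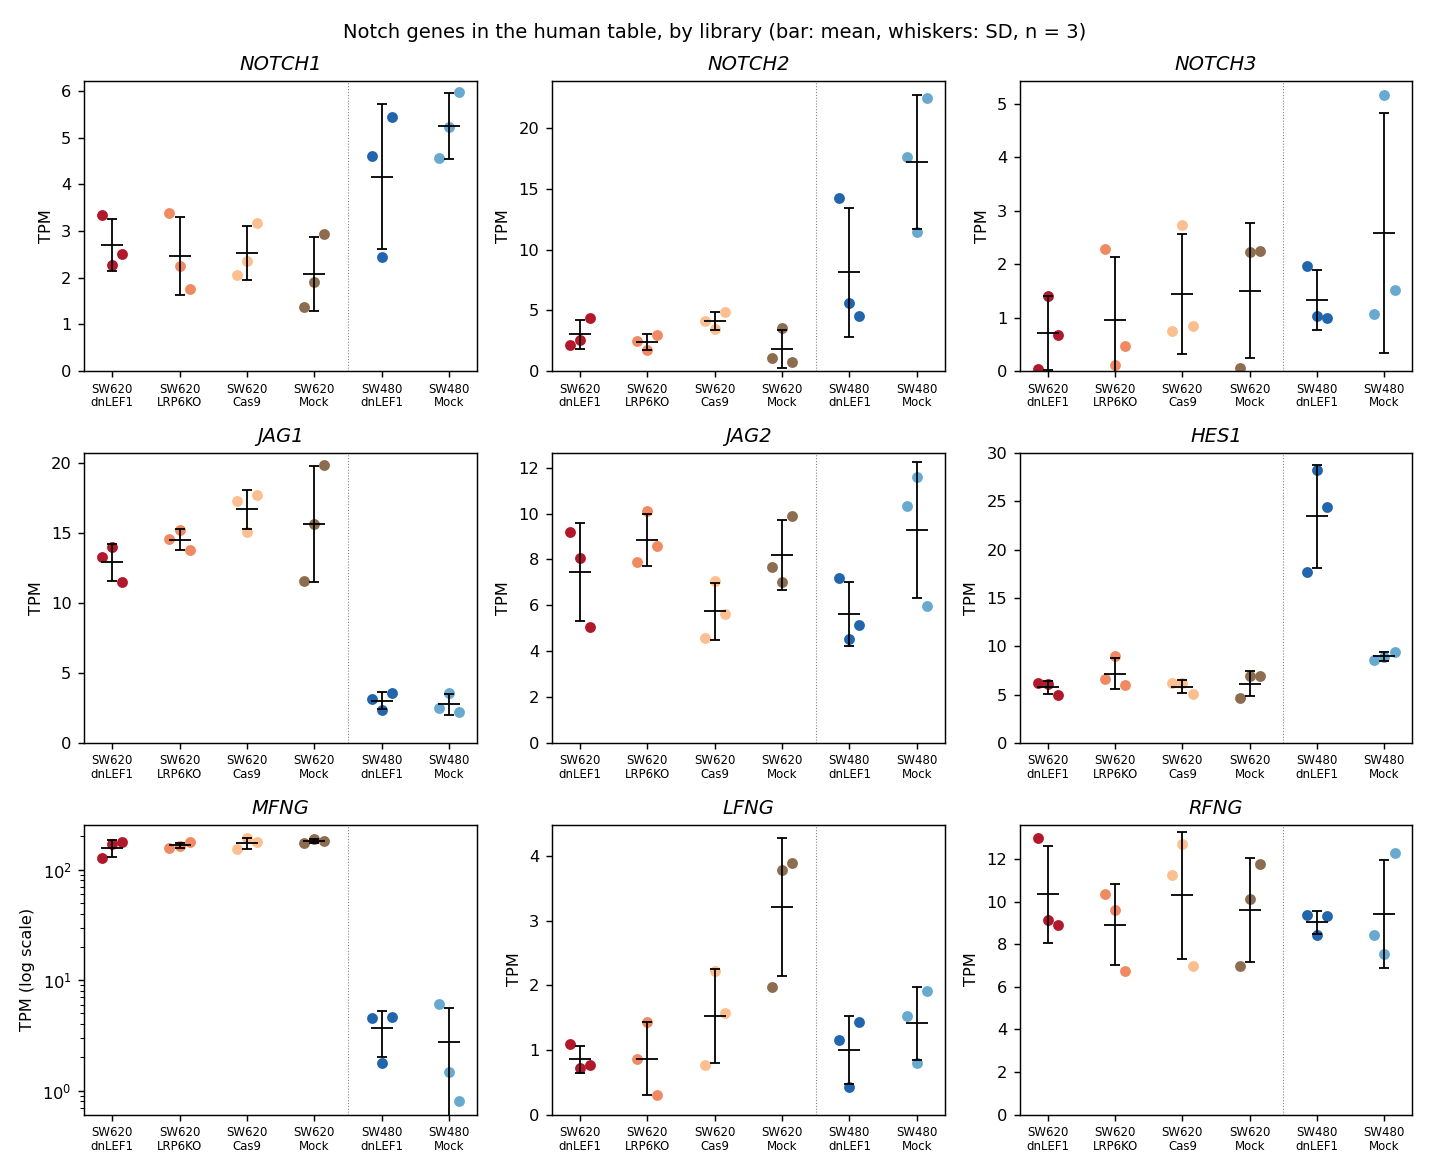
Level of each gene in TPM by library for the 6 groups, each point 1 library, with the mean as a bar and the SD as whiskers (n = 3); the MFNG panel has a log axis, and its SW480 Mock whisker runs below the axis. MFNG sits between 127.66 and 192.81 TPM in every SW620 library and at 6.07 TPM or less in every SW480 library, and HES1 sits highest in SW480 dnLEF1.

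The comparison of control tumours asked how the lines differ without dnLEF1. Differences are given as log2 of TPM + 1, which understates the change of genes at low levels, with limma's standard error (SE) and a Benjamini-Hochberg adjusted p over all genes tested, called below 0.05. In SW620 Mock against SW480 Mock, JAG1 and MFNG rose and NOTCH1 and NOTCH2 fell, 4 of the 9 genes, where 20.3% of 22972 genes were called. The median difference of the 9 genes was -0.13, against -0.14 over all genes tested. In SW620 dnLEF1 against SW480 dnLEF1, JAG1 and MFNG rose and HES1 fell, 3 of the 9, where 27.9% of genes were called. The median there was -0.07 for the 9 genes, against -0.29 over all genes. Neither share was tested against its background.

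Within a line the 9 genes were called in none of the 4 comparisons made with limma. For SW480 dnLEF1 against SW480 Mock 0.075% of 22654 genes were called, and 2 of the 9 had an unadjusted p under 0.05. For SW620 dnLEF1 against SW620 Mock the share called was 0.571% of 22944 genes, with 1 of the 9 under an unadjusted 0.05. For SW620 LRP6KO against SW620 Cas9 it was 0.00436%, a single gene, with 1 of the 9 under an unadjusted 0.05, and for SW620 Cas9 against SW620 Mock it was 0.0741%, with 2 of the 9. None of the 9 was called in the difference between the dnLEF1 change in SW620 and that in SW480, where 0.183% of 22972 genes were called and 2 of the 9 had an unadjusted p under 0.05. These comparisons share control libraries: both SW620 dnLEF1 and SW620 Cas9 were set against SW620 Mock. The SW620 Cas9 libraries entered LRP6KO against Cas9 and Cas9 against Mock with opposite signs, so those differences are not independent. So few genes were called that a count of 0 among 9 is near what the background gives.

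**Figure D2:**
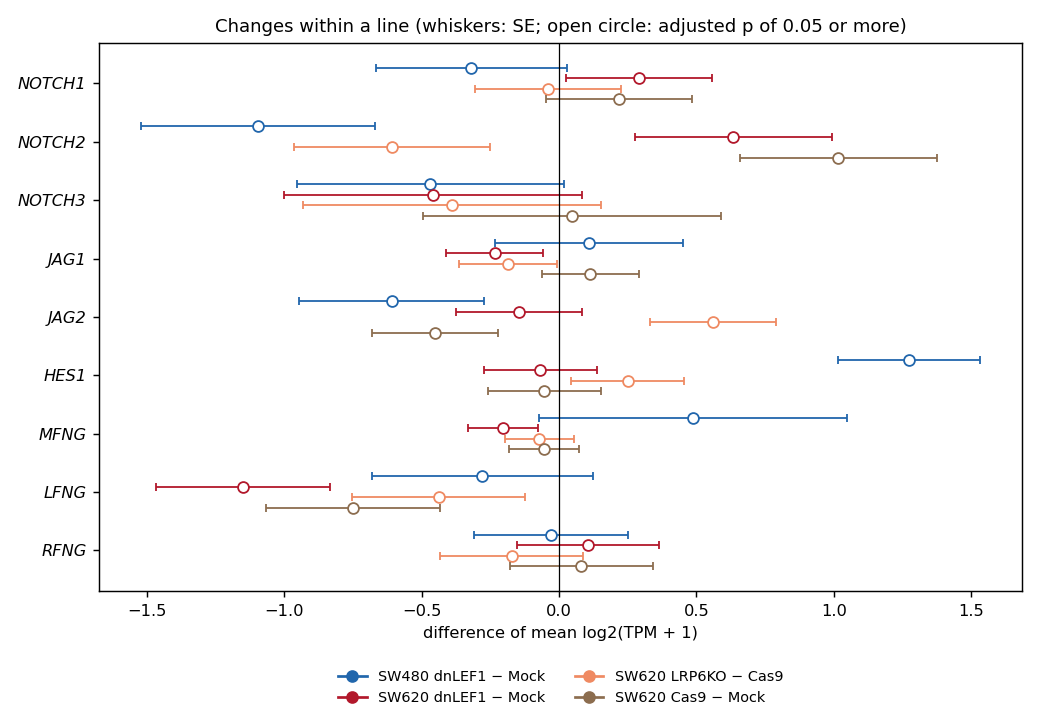
Differences of mean log2(TPM + 1) within a line for the 9 genes, with whiskers of 1 SE; every circle is open because no adjusted p was under 0.05. HES1 lies farthest to the right, at 1.28 in SW480 dnLEF1 against Mock, and LFNG farthest to the left, at -1.15 in SW620 dnLEF1 against Mock.

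Among the receptors, NOTCH2 had the widest span. This gene (ENSG00000134250.19, chromosome 1, 119911553 to 120069626, minus strand, GRCh38) codes for a receptor found widely in epithelia and blood vessels. It had 1.04, 3.58 and 0.72 TPM in SW620 Mock, against 17.68, 11.46 and 22.54 TPM in SW480 Mock, and every SW620 value lay below every SW480 value, as for 19.7% of genes. NOTCH2 fell by 2.80 log2 units (SE 0.45, adjusted p = 7.97e-04). Under dnLEF1 the same gene had 2.11, 2.59 and 4.38 TPM in SW620, against 14.26, 5.61 and 4.56 TPM in SW480. These ranges were again separate, but by a narrow gap, and the difference of -1.07 was not called (SE 0.45, adjusted p = 0.0947). Lower ranges without overlap were found for 31.7% of genes in that comparison.

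Values of NOTCH2 within a line were wide. In SW480 they averaged 8.14 ± 5.32 TPM with dnLEF1 and 17.2 ± 5.55 TPM with Mock (SD, n = 3 each), with dnLEF1 replicate 1 at 14.26 TPM inside the Mock range. The difference was -1.10 with an SE of 0.43 and an adjusted p of 0.619. In SW620, NOTCH2 averaged 3.03 ± 1.2 TPM with dnLEF1, 2.39 ± 0.643 TPM with LRP6KO, 4.14 ± 0.720 TPM with Cas9 and 1.78 ± 1.57 TPM with Mock (SD, n = 3 each). All 3 LRP6KO values lay below all 3 Cas9 values, as 4% of genes did, with a difference of -0.61 (SE 0.36, adjusted p = 0.934). Cas9 against Mock gave 1.02 (SE 0.36, adjusted p = 0.428), with overlap through Mock replicate 2 at 3.58 TPM. Cas9 thus had the highest mean of the SW620 groups, and the LRP6KO mean lay above that of Mock. The dnLEF1 change in SW620 minus that in SW480 was 1.73 (SE 0.64, adjusted p = 0.364).

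Reads of NOTCH2 can be shared with near-identical copies, so its level is uncertain. NOTCH2NLA, a partial copy made by duplication in the human lineage, averaged 8.27 TPM in SW620, against 24.3 TPM in SW480. The copy was thus also lower in SW620, and how the counting divided reads between the copies is not given in the sources used here.

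NOTCH1 (ENSG00000148400.10, chromosome 9, 136494433 to 136545786, minus strand), a receptor active in intestinal crypts, was the other receptor that differed between control tumours. It had 1.37, 1.91 and 2.94 TPM in SW620 Mock, against 4.57, 5.22 and 5.98 TPM in SW480 Mock. Every SW620 Mock value lay below every SW480 Mock value, as for 19.7% of genes, and NOTCH1 fell by 1.05 log2 units (SE 0.29, adjusted p = 0.0236). The call was lost without SW620 Mock replicate 1 (adjusted p = 0.101), SW620 Mock replicate 2 (0.0716) or SW480 Mock replicate 3 (0.0631), and with only these 6 libraries in the fit the adjusted p was 0.05. Under dnLEF1 it had 3.34, 2.27 and 2.5 TPM in SW620, against 4.6, 2.44 and 5.45 TPM in SW480, which overlapped (difference -0.44, SE 0.29, adjusted p = 0.291). Within a line its differences ran between -0.32 in SW480 dnLEF1 against Mock and 0.29 in SW620 dnLEF1 against Mock. An antisense gene, AL592301.1, overlaps NOTCH1 by 955 bases at 1.08 TPM or less, and whether the counting used strand is not given in the sources used here.

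NOTCH3 (ENSG00000074181.8, chromosome 19, 15159038 to 15200981, minus strand) is best known from pericytes and arterial smooth muscle. Its level varied more between libraries of a group than between groups. It had 0.04, 1.41 and 0.68 TPM in SW620 dnLEF1, 2.29, 0.11 and 0.47 TPM in SW620 LRP6KO, 0.75, 2.74 and 0.85 TPM in SW620 Cas9, and 0.05, 2.22 and 2.24 TPM in SW620 Mock. In SW480 it had 1.97, 1.03 and 0.99 TPM with dnLEF1, against 1.06, 5.16 and 1.51 TPM with Mock. The highest value of each line fell in 1 library, SW620 Cas9 replicate 2 at 2.74 TPM and SW480 Mock replicate 2 at 5.16 TPM, and no difference was called.

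The summed level of 7 pericyte and smooth muscle markers was highest beside the highest NOTCH3 value in 4 of the 6 groups. It was 26.74 TPM in SW620 Cas9 replicate 2, against 17.38 and 18 TPM in replicates 1 and 3, and 49.53 TPM in SW620 LRP6KO replicate 1, against 30.02 and 17.9 TPM in replicates 2 and 3. In SW480 Mock it was 89.45 TPM in replicate 2, against 56.43 and 39.9 TPM in replicates 1 and 3. In SW620 Mock replicates 1 to 3 had sums of 18.85, 21.28 and 26.82 TPM, with NOTCH3 nearly equal in the last pair. In the other groups the sum was lowest where NOTCH3 was highest, with 11.42, 9.24 and 12.68 TPM in SW620 dnLEF1 and 53.58, 65.19 and 68.09 TPM in SW480 dnLEF1. Over the lines it was 9.24 to 49.53 TPM in SW620, against 39.9 to 89.45 TPM in SW480. ACTA2, smooth muscle actin, made up most of it, with a median of 11.59 TPM in SW620, against 43.59 TPM in SW480. The sum therefore mainly followed ACTA2, and single markers differed between the lines in both directions. PDGFRB had a median of 1.735 TPM in SW620, against 0.84 TPM in SW480, and RGS5 0.645 TPM, against 2.1 TPM. Of the 7 markers CSPG4 did not pass the filter and none was at 0 in every library. Where the sum peaked beside NOTCH3, the same library also had the highest endothelium sum and the most genes above 0 of its group. That endothelium sum was 5.96 TPM in SW620 Cas9 replicate 2 and 12.63 TPM in SW620 LRP6KO replicate 1. It was 9.29 TPM in SW480 Mock replicate 2 and 5.8 TPM in SW620 Mock replicate 3. Genes above 0 there were 29691, 34114, 34709 and 29547, in that order. The hosts were mice, and how reads were divided between human and mouse is not given in the sources used here. The cell type behind these human values therefore cannot be told. The part of pericyte and smooth muscle transcripts in the NOTCH3 values was not tested.

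Summed over NOTCH1, NOTCH2 and NOTCH3, transcript levels were 6.43 ± 1.93 TPM in SW620 (SD, n = 12) and 19.4 ± 7.92 TPM in SW480 (SD, n = 6). These SDs, and those by line for the ligands and Fringe genes below, pool the groups of a line. In SW480 the receptor sum averaged 13.6 TPM with dnLEF1 and 25.1 TPM with Mock. The receptor sum was 2.46 to 8.89 TPM in SW620, against 9.08 to 30.03 TPM in SW480, so the lines did not overlap. No share over all genes was computed for such sums. NOTCH2 made up 43.6% ± 13.4 of it in SW620 and 62.5% ± 13.5 in SW480, with overlapping ranges. NOTCH1 made up 40.3% ± 12.2 in SW620 and 27.0% ± 11.4 in SW480. NOTCH4, a receptor outside the 9 genes, is not in this sum or these shares. It averaged 5.01 TPM in SW620, above the mean of each summed receptor there, and 7.10 TPM in SW480.

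Of the ligands, JAG1 separated the lines and JAG2 did not. JAG1 (ENSG00000101384.12, chromosome 20, 10637684 to 10673999, minus strand) codes for a transmembrane ligand of all Notch receptors. It had 11.56, 15.63 and 19.85 TPM in SW620 Mock, against 2.49, 3.57 and 2.17 TPM in SW480 Mock. With dnLEF1 it had 13.27, 14.04 and 11.47 TPM in SW620, against 3.15, 2.34 and 3.58 TPM in SW480. The lowest SW620 library was above the highest SW480 library in both comparisons, as for 15.7% of genes between Mock tumours and 13.1% between dnLEF1 tumours. JAG1 rose by 2.14 log2 units between Mock tumours (SE 0.25, adjusted p = 6.31e-05) and by 1.80 between dnLEF1 tumours (SE 0.25, adjusted p = 1.91e-04).

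Within a line the JAG1 differences were small. SW620 dnLEF1 averaged 12.9 ± 1.32 TPM, LRP6KO 14.5 ± 0.741 TPM, Cas9 16.7 ± 1.40 TPM and Mock 15.7 ± 4.15 TPM (SD, n = 3 each). Its dnLEF1 difference was -0.23 in SW620, with a 95% interval of -0.62 to 0.15, and 0.11 in SW480, with an interval of -0.67 to 0.89. The SW480 interval is wide enough to hold a change of more than 0.5 log2 units either way. The antisense gene AL050403.2 overlaps JAG1 by 1072 bases and reached 1.16 TPM at most.

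JAG2 (ENSG00000184916.8, chromosome 14, 105140981 to 105168824, minus strand), the second Jagged ligand, had 7.69, 7.0 and 9.89 TPM in SW620 Mock, against 10.33, 11.59 and 5.95 TPM in SW480 Mock. These ranges overlapped, and the difference of -0.13 was not called (SE 0.29, adjusted p = 0.8, 95% interval -0.76 to 0.50). In SW620 LRP6KO it had 7.89, 10.12 and 8.57 TPM, against 4.56, 7.04 and 5.6 TPM in SW620 Cas9. All 3 LRP6KO values were above all 3 Cas9 values, as were those of 5.69% of genes, and the difference of 0.56 had an SE of 0.23, an unadjusted p of 0.0318 and an adjusted p of 0.81. Cas9 itself stood at -0.45 against Mock (SE 0.23, adjusted p = 0.629), so LRP6KO averaged 8.86 ± 1.14 TPM and Mock 8.19 ± 1.51 TPM (SD, n = 3 each). A processed transcript on the same strand, AL512356.1, overlaps JAG2 by 16631 bases at 1.56 TPM or less.

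The balance of the ligand pair was also computed. JAG1 made up 66.5% ± 6.32 of the JAG1 and JAG2 sum in SW620 (SD, n = 12) and 29.2% ± 7.73 in SW480 (SD, n = 6). Its share ran between 59.1% and 79.1% in SW620, against 19.4% and 41.1% in SW480, without overlap. The sum itself was 22.5 ± 3.14 TPM in SW620 and 10.3 ± 3.13 TPM in SW480.

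**Figure D3:**
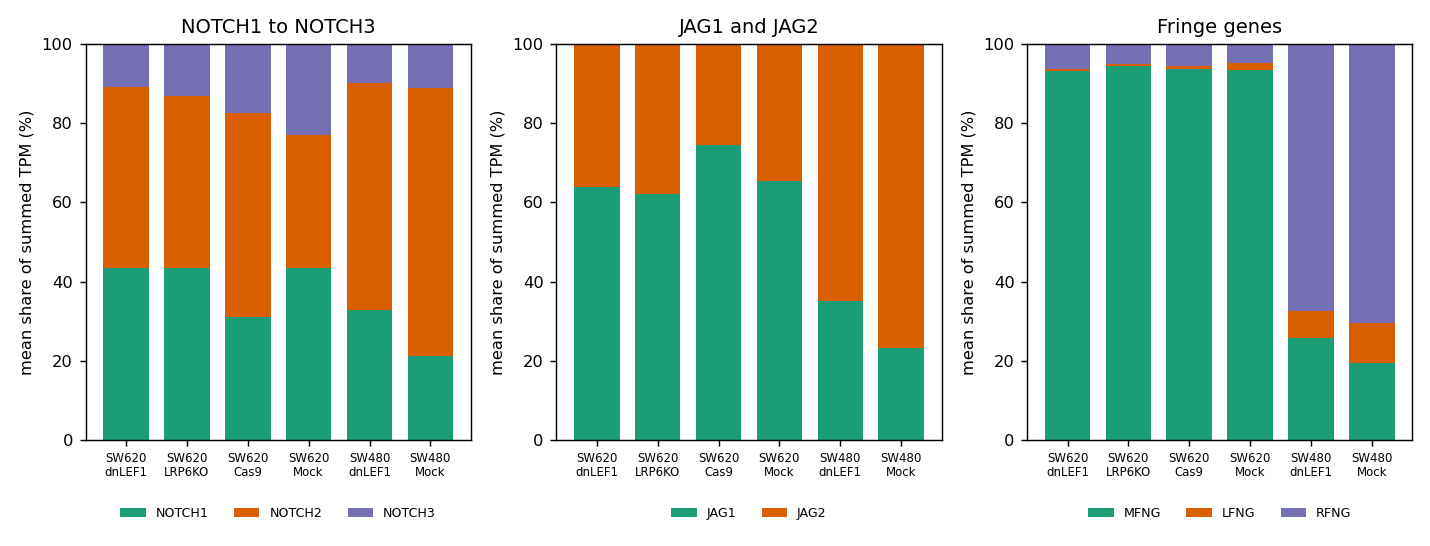
Mean share (%) of the summed TPM of NOTCH1 to NOTCH3 (without NOTCH4), the Jagged ligands and the Fringe genes held by each gene, by group (n = 3). MFNG makes up 90.1% or more of the Fringe sum in every SW620 library and RFNG most of it in SW480, and JAG1 and JAG2 change places between the lines.

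MFNG (ENSG00000100060.17, chromosome 22, 37469063 to 37486401, minus strand), the manic fringe enzyme, showed the largest difference of the 9 genes. It had 173.81, 187.92 and 181.98 TPM in SW620 Mock, against 6.07, 1.49 and 0.8 TPM in SW480 Mock, a ratio of means of 65.0. With dnLEF1 it had 127.66, 170.41 and 178.1 TPM in SW620, against 4.55, 1.79 and 4.63 TPM in SW480. No SW620 library came near any SW480 library. MFNG rose by 5.85 log2 units between Mock tumours (SE 0.42, adjusted p = 1.46e-06) and by 5.16 between dnLEF1 tumours (SE 0.42, adjusted p = 3.31e-06). Ranked by size of increase it stood at place 4 of 22972 genes between Mock tumours and at place 11 between dnLEF1 tumours.

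Inside SW620 the MFNG ranges of dnLEF1, LRP6KO and Cas9 each overlapped that of the group they were set against. The groups averaged 159 ± 27.2 TPM with dnLEF1, 166 ± 9.90 TPM with LRP6KO, 175 ± 19.5 TPM with Cas9 and 181 ± 7.08 TPM with Mock (SD, n = 3 each). The difference was -0.20 for dnLEF1 against Mock, with a 95% interval of -0.48 to 0.07, and -0.07 for LRP6KO against Cas9, with an interval of -0.35 to 0.20. Changes of more than 0.5 log2 units lie outside both intervals. In SW480 the interval for dnLEF1 against Mock ran between -0.79 and 1.76, since SW480 Mock replicate 1 alone had 6.07 TPM.

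LFNG (ENSG00000106003.12, chromosome 7, 2512529 to 2529177, plus strand), the lunatic fringe enzyme, was low everywhere. It had 1.1, 0.72 and 0.76 TPM in SW620 dnLEF1, 0.86, 1.43 and 0.3 TPM in SW620 LRP6KO, 0.77, 2.22 and 1.57 TPM in SW620 Cas9, and 1.98, 3.78 and 3.89 TPM in SW620 Mock. SW620 Mock held the 2 highest values of all libraries, and no dnLEF1 value reached a Mock value. Lower ranges without overlap were found for 16.5% of genes in that comparison, and LFNG differed by -1.15 (SE 0.32, unadjusted p = 0.00353, adjusted p = 0.153). Cas9 against the same Mock libraries gave -0.75 (SE 0.32, adjusted p = 0.53). In SW480 the gene had 1.15, 0.42 and 1.43 TPM with dnLEF1, against 1.53, 0.8 and 1.91 TPM with Mock, with overlap and a difference of -0.28 (SE 0.40, adjusted p = 0.937). Between Mock tumours the LFNG difference was 0.80 without overlap, as for 15.7% of genes, and it was not called (SE 0.32, adjusted p = 0.102).

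RFNG (ENSG00000169733.11, chromosome 17, 82047902 to 82051831, minus strand), the radical fringe enzyme, had nearly the same level in both lines. Its lowest, median and highest levels were 6.75, 9.855 and 12.97 TPM in SW620, against 7.53, 8.875 and 12.28 TPM in SW480. The ranges lay almost on top of each other, and the difference between Mock tumours was 0.03 with a 95% interval of -0.51 to 0.56. RFNG overlaps GPS1 on the opposite strand by 1141 bases, and GPS1, a subunit of the COP9 signalosome, averaged 157 TPM, so reads from GPS1 could have entered the RFNG value if strand was not used.

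Summed Fringe transcript was 182 ± 17.7 TPM in SW620 (SD, n = 12) and 13.7 ± 2.69 TPM in SW480 (SD, n = 6), without overlap. MFNG held 93.7% ± 1.68 of it in SW620 and 22.6% ± 12.1 in SW480. RFNG held 5.47% ± 1.54 in SW620 and 68.9% ± 11.97 in SW480, with an almost equal level in TPM. LFNG held 0.864% ± 0.567 in SW620 and 8.55% ± 2.87 in SW480.

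HES1 (ENSG00000114315.3, chromosome 3, 194136145 to 194138732, plus strand), the repressor described above, was the member farthest from Mock with dnLEF1 in SW480. It had 17.71, 28.27 and 24.46 TPM in SW480 dnLEF1, against 8.53, 8.9 and 9.43 TPM in SW480 Mock. Every dnLEF1 value was above every Mock value, as were those of 7.27% of genes, and the ratio of means was 2.62. The difference of 1.28 had an SE of 0.26, a 95% interval of 0.69 to 1.86 and an unadjusted p of 9.15e-04, at place 103 of 22654 genes by p. Its adjusted p was 0.201 with the 6 SW480 libraries in the fit and 0.00386 with all 6 groups in the fit, so the call depends on whose spread is used. LEF1 itself behaved the same way, with a difference of 2.50 and an adjusted p of 0.113 in the SW480 libraries, against 0.000851 with all 6 groups.

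In SW620 the groups overlapped. HES1 had 6.17, 6.08 and 5.0 TPM in SW620 dnLEF1, against 4.62, 6.93 and 6.87 TPM in SW620 Mock, a difference of -0.07 with a 95% interval of -0.52 to 0.38. The dnLEF1 change in SW620 minus that in SW480 was -1.34 (SE 0.31, unadjusted p = 0.00102, adjusted p = 0.129). It passed the threshold with all 6 groups in the fit (adjusted p = 0.0455) and without SW480 dnLEF1 replicate 1 (0.0396), the lowest of its group. HES1 in SW620 LRP6KO had 6.6, 8.95 and 5.97 TPM, against 6.24, 6.15 and 5.05 TPM in SW620 Cas9, with overlap and a difference of 0.25 (SE 0.21, adjusted p = 0.943).

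Between dnLEF1 tumours HES1 fell by 1.84 log2 units in SW620 relative to SW480 (SE 0.22, adjusted p = 7.32e-05). Between Mock tumours the difference was -0.50, with ranges that did not overlap, as for 19.7% of genes, and it was not called (SE 0.22, adjusted p = 0.146). NOTCH1, NOTCH2 and HES1 were each called in 1 of these comparisons of lines and not in the other. The difference between dnLEF1 changes, which is the test of that contrast, was not called for any of them (adjusted p = 0.659 for NOTCH1, 0.364 for NOTCH2 and 0.129 for HES1). AXIN2, a gene switched on by Wnt signalling, had 32.51, 25.69 and 29.78 TPM in SW480 dnLEF1, against 48.18, 61.52 and 62.02 TPM in SW480 Mock, lower without overlap (difference -0.94, adjusted p = 0.266, and 0.0147 with all 6 groups). In SW620, AXIN2 had 33.98, 21.96 and 19.2 TPM with dnLEF1, against 24.28, 26.12 and 29.72 TPM with Mock, with overlap.

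**Figure D4:**
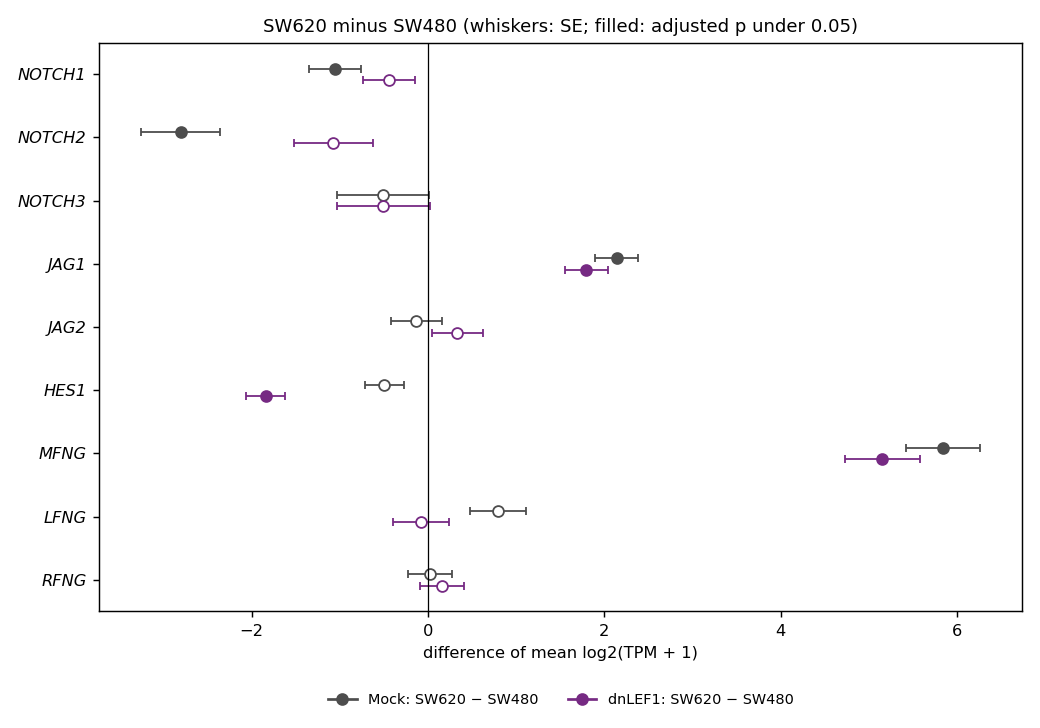
Differences of mean log2(TPM + 1) between SW620 and SW480 for the 9 genes, for Mock tumours and for dnLEF1 tumours, with whiskers of 1 SE and filled circles where the adjusted p was under 0.05. MFNG stands at 5.85 and 5.16 and JAG1 at 2.14 and 1.80, while NOTCH1 and NOTCH2 are filled for Mock tumours and HES1 for dnLEF1 tumours.

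The rest of the pathway was read from a list of 63 genes in 6 roles, of which 49 were tested. Within a line, and in the difference between dnLEF1 changes, limma called none of the 49. The number with an unadjusted p under 0.05 was 2 for SW480 dnLEF1, 7 for SW620 dnLEF1, 2 for LRP6KO and 3 for Cas9, each against its control, and 4 for the difference. Between Mock tumours 7 genes rose and 9 fell in SW620, where 9.04% and 11.3% of all genes did. Leaving out 1 library gave 5 to 6 higher and 3 to 8 lower between Mock tumours. The lower count was 3 without SW480 Mock replicate 1, 4 without SW480 Mock replicate 2, 5 without SW620 Mock replicate 1, and 4 without SW620 Mock replicate 2 or 3. Between dnLEF1 tumours 6 rose and 14 fell, where 8.44% and 19.5% of all genes did. Median-ratio scaling changed that last split over all genes to 3505 higher and 3130 lower, against 1939 and 4478 as deposited. Leaving out 1 library gave 4 to 6 higher and 11 to 14 lower there. Under that scaling PSENEN and MAML1 lost their calls between Mock tumours, and NOTCH4, PSENEN and RBPJ lost theirs between dnLEF1 tumours. The median over the 49 was -0.21 between Mock tumours, against -0.14 over all genes, and -0.20 between dnLEF1 tumours, against -0.29 over all genes. Of the 49, 6 reached 1 TPM in 1 line only: MAML2 in SW620, and DLL1, NEURL1B, MAML3, HES7 and HEY2 in SW480. They passed the filter through the line where they were high, so these counts and medians are a description.

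Of 6 tested other receptors, ligands and ligand-like genes, DLL4, a Delta-like ligand, rose and DLL1, DLL3 and EGFL7 fell between Mock tumours, and NOTCH4, DLL1, DLL3 and EGFL7 fell between dnLEF1 tumours. Between Mock tumours DLL4, DLL3 and EGFL7 kept their calls in all 15 alternatives and DLL1 in 4. Between dnLEF1 tumours NOTCH4 kept its call in 11 and DLL1, DLL3 and EGFL7 in all 15. DLL1 reached 1 TPM in SW480 alone and passed the filter through the line where it was high, so its calls are a description. EGFL7, a secreted protein that can bind Notch receptors, had 4.35, 7.58 and 7.79 TPM in SW620 Mock, against 54.19, 57.19 and 63.77 TPM in SW480 Mock. It fell by 3.0 log2 units between Mock tumours (SE 0.22, adjusted p = 1.61e-06) and by 2.97 between dnLEF1 tumours (SE 0.22, adjusted p = 1.48e-06). DLL3, which is known to hold back Notch in the cell that makes it, had 0.89, 0.86 and 1.59 TPM in SW620 Mock, against 10.69, 8.94 and 10.16 TPM in SW480 Mock, and fell by 2.39 (SE 0.23, adjusted p = 1.62e-05). In both genes no SW620 Mock value reached a SW480 Mock value.

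Of 11 tested genes that handle ligands and receptors, such as ubiquitin ligases and glycosyltransferases, NEURL1B and NUMB fell between Mock tumours, and both also fell between dnLEF1 tumours. The Mock call was kept in 4 of 15 alternatives for NEURL1B and in 10 for NUMB, and that between dnLEF1 tumours in 13 and 15. NEURL1B reached 1 TPM in SW480 alone and passed the filter through the line where it was high, so its calls are a description. Among genes of the cleavage step PSENEN, a subunit of gamma-secretase, fell in both comparisons, and between dnLEF1 tumours APH1A rose and APH1B fell. PSENEN kept its call in 12 of 15 alternatives between Mock tumours and in 14 between dnLEF1 tumours. APH1A kept its call in 8 and APH1B in 15. NEURL1, a ubiquitin ligase for Notch ligands, had 2.32, 1.58 and 1.57 TPM in SW480 dnLEF1, against 0.07, 0.39 and 0.17 TPM in SW480 Mock. Elsewhere NEURL1 reached 1 TPM in 1 library, so it passed the filter almost wholly through the group where it was high and had to differ. Its groups did not overlap, as for 7.27% of genes, and its difference of 1.22 had the smallest p of the list in that comparison (adjusted p = 0.448, and 0.0265 with all 6 groups in the fit). APH1B had the smallest p for LRP6KO, with 6.14, 2.15 and 3.87 TPM, against 2.14, 1.32 and 1.79 TPM in Cas9, a difference of 0.81 and an adjusted p of 0.724.

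Of 16 genes of the nuclear complex, MAML2, CTBP2, HDAC1 and HDAC2 rose and MAML1 fell between Mock tumours. Between dnLEF1 tumours MAML2, CTBP2 and HDAC2 rose while RBPJ and MAML3 fell. Of 15 alternatives, 4 kept the Mock call of MAML1, 9 that of HDAC1, 14 that of MAML2 and 15 those of CTBP2 and HDAC2. The dnLEF1 call was kept in 8 for RBPJ, 14 for CTBP2 and 15 for MAML2, HDAC2 and MAML3. MAML2 reached 1 TPM in SW620 alone and MAML3 in SW480 alone, so their calls are a description. HDAC2, a histone deacetylase of repressor complexes, had 247.31, 321.57 and 332.66 TPM in SW620 dnLEF1, against 81.91, 64.35 and 70.81 TPM in SW480 dnLEF1, and rose by 2.03 (SE 0.23, adjusted p = 4.45e-05). Of 6 tested HES and HEY genes, listed under target genes without a check that Notch drives them here, HES6 rose in both comparisons of lines. Its call was kept in 10 of 15 alternatives between Mock tumours and in all 15 between dnLEF1 tumours. HEY2 was at 0.85 TPM or less in SW620 and HES7 reached 1 TPM in the 3 SW480 dnLEF1 libraries alone, so both had to differ where they were high. HES7 had 0.33, 0.2 and 0.62 TPM in SW620 dnLEF1, against 1.65, 1.52 and 1.42 TPM in SW480 dnLEF1. NRARP, HES5 and HEYL, also on that list, did not pass the filter.

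The list headed secretory lineage had 2 tested genes, TFF3 and SOX9. SOX9 averaged 12.07 TPM in SW620 and 17.77 TPM in SW480 and was called in neither comparison of lines. TFF3, the trefoil peptide of goblet cells, had 490.45, 523.09 and 461.68 TPM in SW620 Mock, against 8.44, 0.85 and a listed 0 TPM in SW480 Mock. With dnLEF1 it had 396.34, 286.66 and 265.53 TPM in SW620, against 6.8, a listed 0 and 2.07 TPM in SW480. TFF3 rose in both comparisons (adjusted p = 1.94e-05 and 3.88e-05). Within SW620 its dnLEF1 difference was -0.66 (adjusted p = 0.0776, and 0.0154 with array weights or 0.0198 without dnLEF1 replicate 1), and the Cas9 difference against the same Mock libraries was -0.73 (adjusted p = 0.129, and 0.0309 with array weights). ATOH1, MUC2, SPDEF, GFI1, NEUROG3 and CHGA of this list did not pass the filter. Neither did OLFM4, which was listed with them but is not read as a secretory marker here.

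**Figure D5:**
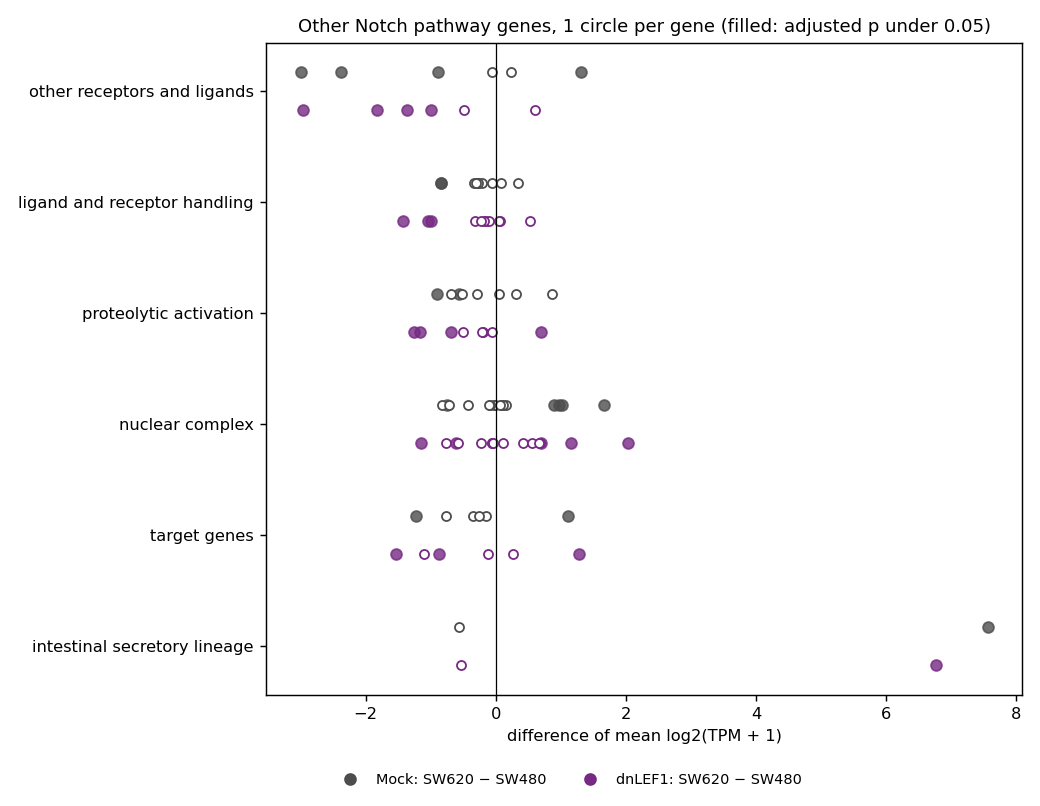
Differences of mean log2(TPM + 1) between SW620 and SW480 for the 49 other Notch pathway genes tested, by role, for Mock tumours and for dnLEF1 tumours, with 1 circle per gene and filled circles where the adjusted p was under 0.05. EGFL7 at -3.0 and TFF3 at 7.57 lie at the ends, and filled circles stand on both sides of 0.

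Genes most like each member were sought over the 18 libraries among 10777 genes with a symbol and a mean of at least 5 TPM. The measure was Pearson's correlation of log2(TPM + 1) after the mean of each line was taken away, so that the lines themselves do not enter, and it is given as a description. HES1 had the closest partners, GMFG (r = 0.932) and PLLP (0.925). MFNG was most like PASD1 (0.857) and GNAI1 (0.845), NOTCH2 most like RF00100 (0.851) and SNORA63 (0.808), and NOTCH3 most like P4HB (0.85) and FLCN (0.849). RFNG was most like MFSD12 (0.831) and AC007922.2 (0.8), JAG2 most like RNFT2 (0.811) and DBNDD2 (0.78), and NOTCH1 most like ESPL1 (0.803) and WIPI2 (0.794). LFNG was most like S100A10 (0.799) and CIB1 (0.794), and JAG1 most like CACFD1 (0.76) and ZFP36L1 (0.757). The 18 points share line and group, and each partner is the best of all candidates.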

How the data were processed

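RNA of 18 xenograft libraries was sequenced by Smart-seq2, a full-length cDNA method, from RNA with an integrity number of at least 9, per the labels' protocols. The authors deposited TPM per gene, scaled to a fixed total per library, so depth is unknown and no counting interval is given. Per the submitters' processing notes, reads were handled with Trimmomatic 0.35, Bowtie 1.2 and RSEM 1.2.31 and the builds hg38 and mm10. The deposited TPM values of mouse genes and the 3 libraries without tumour cells were not used here. Of 58381 human identifiers, 45 second copies of pseudoautosomal genes were left out, and 58216 had a symbol in GENCODE release 29.

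A gene was kept when 3 or more of 18 libraries held 1 TPM or more of it (22981). Tests used limma (version 3.58.1, R 4.3.3), whose prior variance followed mean intensity, on log2(TPM + 1), with Benjamini-Hochberg adjustment over all genes. Libraries of 1 line entered a comparison within it, and the 12 dnLEF1 and Mock libraries a comparison of lines, because the median SD between replicates was 0.351 to 0.408 in SW480 and 0.233 to 0.301 in SW620. Genes listed at 0 in every library of a fit were left out of it. The text names all 9 members, the 3 pathway genes with the smallest p among those called per comparison (1 where none was), 2 like genes per member, LEF1, LRP6 and AXIN2. Other pathway and marker genes are named where a count is broken down. Some counted pathway genes are not reported here by name. The members, lists, tests and rules were chosen with earlier results of these data known. Python 3.11.15, numpy 2.4.6, pandas 2.3.3 and matplotlib 3.10.9 were used for summaries and figures.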

Additional observations from a re-analysis of the deposited data

How the results depend on the processing

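Depth is unknown, so low genes such as LFNG and NOTCH3 carry an error that cannot be computed. The alternatives were a pseudocount of 0.1, no filter, median-ratio scaling, all 6 groups or only those compared in the fit, weights per library, a block on replicate number, each library left out, and SW480 Mock replicate 2 and SW620 LRP6KO replicate 1 left out together. A filter counted in the libraries of the fit was added after seeing the data. Of the members' values under these, 974 kept their side of the threshold, 3 crossed into a call, 4 lost one and 0 reversed. With all 6 groups in the fit 1 member was called for SW480 dnLEF1 against Mock and 1 for the difference between dnLEF1 changes, both times HES1. Leaving out single libraries gave 0 to 1 members for that difference, 3 to 4 for the Mock tumours of both lines and 3 for the dnLEF1 tumours. All 15 alternatives kept the calls of JAG1, MFNG and NOTCH2 between Mock tumours, and of JAG1, MFNG and HES1 between dnLEF1 tumours, and 11 of 15 kept that of NOTCH1.

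Counts over all genes moved more. Genes called for SW480 dnLEF1 against Mock were 17, against 5 to 512 under whole-data alternatives and 3 to 32 with a library left out. For SW620 dnLEF1 they were 131, against 38 to 317 and 40 to 63. For LRP6KO they were 1, against 0 to 8 and 2 to 14. For Cas9 they were 17, against 0 to 48 and 1 to 6. For the difference they were 42, against 10 to 172 and 5 to 277, the last without SW480 dnLEF1 replicate 1. Median-ratio scaling moved the median of all genes to -0.002 from -0.12 for SW620 dnLEF1 against Mock, to -0.04 from -0.29 between dnLEF1 tumours and to 0.02 from -0.17 for the difference. The split into higher and lower calls became 3505 and 3130 between dnLEF1 tumours, against 1939 and 4478 as deposited. It became 2517 and 2414 between Mock tumours, against 2077 and 2593. It became 26 and 29 for SW620 dnLEF1, against 29 and 102, 17 and 14 for SW480 dnLEF1, against 7 and 10, and 10 and 14 for the difference, against 11 and 31. With that scaling 10 pathway genes rose and 11 fell between dnLEF1 tumours, and 7 rose and 7 fell between Mock tumours. The cause was not tested.

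Replicate numbers did not pair the libraries: of 45 same-numbered pairs 2 had a correlation of deviations over 0.1 (range -0.18 to 0.22), and libraries correlated best with their own number in 24 of 90 cases. With the replicate block, genes called were 5 for SW480 dnLEF1, 94 for SW620 dnLEF1, 1 for LRP6KO, 0 for Cas9, 4129 between Mock tumours, 5912 between dnLEF1 tumours and 12 for the difference, and members called were 0 within lines, 4 between Mock tumours, 3 between dnLEF1 tumours and 0 for the difference.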

Other observations

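Neighbours of the members along the chromosome were read after the member values had been seen, taking the 3 nearest tested genes on each side. Distances are between gene midpoints. Around MFNG, CARD10, at 27.2 kb, averaged 16.47 TPM in SW620, against 13.61 TPM in SW480, and RAC2 averaged 15.07 TPM, against 28.44 TPM. CYTH4 fell between Mock tumours by 1.5 log2 units (adjusted p = 0.0121), and none of the 6 neighbours was called higher in either comparison of lines. CARD10, at 0.68 between Mock tumours (adjusted p = 0.0793) and 0.1 between dnLEF1 tumours, and CDC42EP1, at 0.29 and 0.63, were above 0 in both.

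Around JAG1, AL034430.1 rose between Mock tumours by 1.35 (adjusted p = 0.00438), SLX4IP by 1.18 (adjusted p = 0.0052) and BTBD3 by 1.19 (adjusted p = 0.00557). BTBD3 lies 1252.8 kb from JAG1, so these genes span a long stretch of chromosome 20, but not every tested gene there was called. AL035456.1 (-0.1, adjusted p = 0.888), LINC00687 (-0.16, adjusted p = 0.865) and AL035448.1 (0.74, adjusted p = 0.155) were not called between Mock tumours. Between dnLEF1 tumours AL034430.1 (1.09, adjusted p = 0.0118) and BTBD3 (1.31, adjusted p = 0.00231) rose, and SLX4IP was not called (0.45, adjusted p = 0.201). Around JAG2, NUDT14 fell by 0.83 (adjusted p = 0.00578) and BRF1 by 0.81 (adjusted p = 0.0259), while JAG2 itself was not called. EGFL7 lies 145.7 kb from NOTCH1, is the third tested gene on its side, and fell with it between Mock tumours. LINC01451 fell there too (-1.07, adjusted p = 0.0244), while PMPCA, INPP5E, SEC16A and NALT1 were not called. Between dnLEF1 tumours EGFL7 (-2.97, adjusted p = 1.48e-06) and NALT1 (-2.2, adjusted p = 0.00296) fell, and NOTCH1 was not called. PHGDH, a serine synthesis enzyme near NOTCH2, also fell between Mock tumours, by 1.84 (adjusted p = 2.03e-05), and the other NOTCH2 neighbours were not called. Between dnLEF1 tumours PHGDH (-1.19, adjusted p = 0.00046) and AC244669.1 (-0.8, adjusted p = 0.00934) fell, and NOTCH2 was not called. Of all genes, 20.3% were called between Mock tumours and 27.9% between dnLEF1 tumours.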
